A study of Mus musculus with 6 samples.

Results

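The 3 genes Ins1, Ins2 and Iapp encode the peptide hormones that mouse beta cells release in response to glucose, insulin in its I and II forms and islet amyloid polypeptide, or amylin. They were chosen by gene symbol, and all 3 were found among the 16547 genes of an RNA sequencing table of isolated pancreatic islets, in 1 row each. Islets came from C57BL/6 mice aged 11 to 12 weeks, were picked by hand after collagenase digestion and were kept in RPMI medium for 2 days before RNA extraction. The control group, Kcnj11 fl/fl (called WT), had 3 libraries and carried Kcnj11 flanked by loxP sites, and the knockout group, βKcnj11 -/- (called bKO), had 3 libraries and lacked Kcnj11 in beta cells. The labels do not name the promoter that drove Cre in beta cells, nor do they say whether the controls carried a Cre, so the loss of Kcnj11 and the presence of a Cre transgene cannot be told apart. Some Cre lines for beta cells carry Cre within the Ins1 gene or drive it from an Ins2 promoter, so for Ins1, Ins2 and their ratio an effect of the Cre allele on the insulin genes themselves cannot be told apart from the loss of Kcnj11 either. Whether each library is a separate mouse is not stated either, and the p-values therefore measure how far these libraries spread, which can be partly technical. Values of the libraries are listed in the order of replicates 1, 2 and 3 of each group.

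Insulin lowers blood glucose, and amylin is stored in the same granules and released with it. Rodents carry a pair of insulin genes. Ins2 is the ancestral gene, and Ins1 is a retrogene that arose from an Ins2 transcript. Their transcription in beta cells is driven by factors such as Pdx1, Mafa and Neurod1, and the precursors are cut to the mature hormones by the convertases Pcsk1 and Pcsk2. Kcnj11 encodes Kir6.2, which forms the pore of the potassium channel that ATP shuts, and closure of that channel at high glucose depolarises the beta cell and starts secretion. Comparing the groups asks how the levels of the hormone transcripts stand when beta cells lack that pore.

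The likeness of Ins1 and Ins2 bears on how far their values can be separated. In GENCODE transcripts of the GRCm38 build, the coding sequences of Ins1, on chromosome 19, and of Ins2, on chromosome 7, are 327 and 333 bases long and are 92.4% identical over the aligned bases, with 25 mismatches and 6 bases that only Ins2 has. The longest stretch they share has 56 bases, from base 271 to base 326 of the Ins1 coding sequence.
Ins1 and Ins2 shared stretch: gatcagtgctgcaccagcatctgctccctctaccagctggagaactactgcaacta
They differ most in the following stretch, from base 185 to base 238 in Ins1 and from base 185 to base 244 in Ins2, where capitals mark bases that differ or are absent in the other gene.
Ins1: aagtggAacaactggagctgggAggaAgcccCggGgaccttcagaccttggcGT
Ins2: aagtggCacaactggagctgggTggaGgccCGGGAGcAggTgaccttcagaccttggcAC
Of the 278 windows of 50 bases in the Ins1 coding sequence, 7 (2.52%) occur unchanged in that of Ins2, and of the 228 windows of 100 bases 0 do. The labels state neither read length nor how reads that match both genes were handled, so the split between Ins1 and Ins2 is uncertain to that extent. Iapp, on chromosome 6, shares no window of 25 bases with either.

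Promoter sequence is shown because the hormone genes are known targets of the same beta cell factors. RefSeq windows of the GRCm38.p6 build matched 2 of the 3 members, Ins1 and Iapp but not Ins2, and the 250 bases before each annotated start are printed on the plus strand, chr19:52264047-52264296 for Ins1 and chr6:142298175-142298424 for Iapp. Capitals mark matches on either strand to TAATG, the core of A boxes bound by Pdx1, to CATCTG, an E box core bound by Neurod1 and its partners, to TGACG, part of the cAMP response element, or to TCAGC, part of Maf binding sites.
Ins1: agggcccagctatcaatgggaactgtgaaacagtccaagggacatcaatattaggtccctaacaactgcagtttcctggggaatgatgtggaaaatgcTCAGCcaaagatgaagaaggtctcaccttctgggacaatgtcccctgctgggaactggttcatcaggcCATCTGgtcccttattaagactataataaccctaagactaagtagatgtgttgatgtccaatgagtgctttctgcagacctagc
Iapp: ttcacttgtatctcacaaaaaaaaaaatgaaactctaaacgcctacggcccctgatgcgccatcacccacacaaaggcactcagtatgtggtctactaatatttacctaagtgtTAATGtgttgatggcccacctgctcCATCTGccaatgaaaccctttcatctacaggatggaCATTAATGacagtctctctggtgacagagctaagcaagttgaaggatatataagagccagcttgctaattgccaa
The Iapp window held 3 matches to TAATG, of which 2 overlap on opposite strands, and 1 match to CATCTG. The Ins1 window held 1 match to CATCTG and 1 to TCAGC. It held none to TAATG, although TAAT with another base after it occurs there, unmarked, on both strands. Whether transcription begins at the annotated starts was not tested, so promoter matches can lie outside these windows. Among 32851 RefSeq windows of this length, 23.9% held TAATG, 14.4% held CATCTG, 17.8% held TGACG and 46.8% held TCAGC, so each of these short words is common by itself. In Ins1 a match to CATCTG and a match to TCAGC also lie close together just after the annotated start, in the 30 bases at chr19:52264317-52264346 on the plus strand.
Ins1 after the start: ctgcagctTCAGCccctctggcCATCTGcc

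Values were FPKM as deposited, that is fragment numbers divided by transcript length and by library depth, on a linear scale. Estimated from the steps of low FPKM values, a library held between 23100000 and 38800000 fragments. The targeted gene Kcnj11 read 19.7, 24.7 and 25.4 FPKM across the WT libraries against 3.45, 5.31 and 3.51 across the bKO libraries, as labelled. Its log2 difference, bKO minus WT on log2(FPKM + 1), was -2.27 (SE 0.16, limma adjusted p = 0.0219). It no longer passed with any of 4 libraries left out, at a limma adjusted p of 0.0899 without WT replicate 2, 0.0968 without WT replicate 3, 0.233 without bKO replicate 1 and 0.196 without bKO replicate 3. bKO replicates 1 and 3 correlated at 0.9986 (Pearson, across genes), whereas the 14 remaining pairs of libraries ran from 0.9815 to 0.9957, and whether both came from the same RNA is not stated. WT replicate 1 stood apart by its 14 acinar cell markers, which summed to 0.181% of its FPKM against 1.55% to 3.71% in the other libraries.

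The 3 hormone genes were the 3 most abundant rows of every library, in the order Ins2, Iapp and Ins1. The next rows by mean FPKM were Gcg, the glucagon gene, at 10782, the acinar protease gene Ctrb1 at 9948, Ppy, the gene of pancreatic polypeptide, at 8882, Clu at 6685, Sst, the somatostatin gene, at 4565, Chga at 3957 and the trypsinogen gene Try5 at 3901. Among them, Ctrb1 and Try5 are products of exocrine cells, and the beta cell genes Mafa, Slc2a2 and Ucn3 were detected in every library, as the islet label calls for.

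Ins1, the retrogene, had lower values in every bKO library than in any WT library. It was at 37115, 33366 and 26849 FPKM across the WT libraries against 20085, 22443 and 19574 across the bKO libraries. WT replicate 1 was the highest and bKO replicate 3 the lowest, and the groups did not overlap, the lowest WT library being 1.20 times the highest bKO library. The mean was 32443 ± 5194 FPKM for WT against 20701 ± 1531 for bKO (SD, n = 3 each), so that the bKO mean was 63.8% of the WT mean. The libraries varied more in WT, with a coefficient of variation of 16.0%, than in bKO, with 7.39%, a difference that was not tested.

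Iapp, the amylin gene, also separated the groups. Its level was 50894, 50760 and 47317 FPKM across the WT libraries against 30667, 40669 and 30789 across the bKO libraries. Here the spread was the other way around, the WT libraries lying within 1.08-fold of each other while bKO replicate 2 was 1.33 times bKO replicate 1. The mean was 49657 ± 2028 FPKM for WT against 34042 ± 5740 for bKO (SD, n = 3 each), or 68.6% of WT, with 1.16-fold between the lowest WT and the highest bKO library.

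Ins2, the ancestral insulin gene and the most abundant transcript of the islet, did not separate the groups. Its level was 230030, 274163 and 196026 FPKM across the WT libraries against 174596, 229465 and 165691 across the bKO libraries. bKO replicate 2 lay above WT replicate 3 and just under WT replicate 1. The mean was 233406 ± 39178 FPKM for WT against 189918 ± 34537 for bKO (SD, n = 3 each), or 81.4% of WT. Without WT replicate 2, the highest library, the difference of the means changed from -43489 to -23110 FPKM. The table gives a single value for the 3 Ins2 transcripts it lists, so a shift between them would not be seen. In RNA of whole islets, fewer beta cells and less hormone RNA in each beta cell cannot be told apart.

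**Figure D1:**
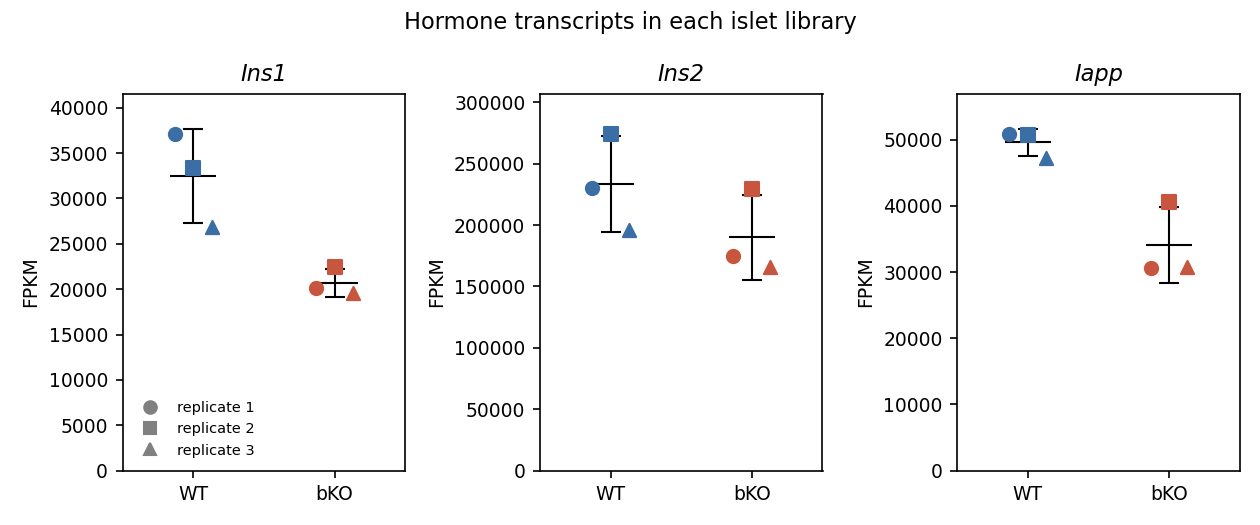
FPKM, on a linear axis from 0, of Ins1, Ins2 and Iapp in each of the 3 WT and 3 bKO libraries, with marker shape giving the replicate number, the horizontal bar the mean and the whiskers the SD. The groups are apart for Ins1 and Iapp and overlap for Ins2, and bKO replicate 2 is the highest bKO library in each panel.

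None of the 3 genes passed a test of the difference between groups. In limma over 15962 genes, the log2 difference was -0.64 for Ins1 (SE 0.55, adjusted p = 0.574), -0.56 for Iapp (SE 0.76, adjusted p = 0.723) and -0.30 for Ins2 (SE 2.49, adjusted p = 0.962). In the same fit 0.244% of the genes passed, 0.125% as lower and 0.119% as higher, and 0 of the 3 members did. Lower values without overlap between the groups, as in Ins1 and Iapp, were found in 6.48% of all tested genes, and higher values without overlap in 15.3%. The differences of Ins1 and Iapp were lower than those of all but 58 and 92 of the tested genes, and that of Ins2 lower than all but 418, while the median over all tested genes was 0.05.

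Those standard errors depend on how the spread of the most abundant genes is modelled. The limma fit draws the spread of each gene towards a trend with abundance, and at the level of Ins1, Iapp and Ins2 that trend stood at an SD of 1.05, 1.46 and 4.86 on the log2 scale. The libraries themselves gave residual SDs of 0.18, 0.17 and 0.25. With a common prior SD of 0.09 in place of the trend, the SEs were 0.13, 0.12 and 0.17 and the 95% intervals of the log2 difference were -0.95 to -0.33 for Ins1, -0.84 to -0.27 for Iapp and -0.70 to 0.10 for Ins2. The limma adjusted p was then 0.115 for Ins1, 0.129 for Iapp and 0.413 for Ins2, so that no member passed under either model. Exact permutation tests of the mean FPKM, two-sided, gave p = 0.1 for Ins1, p = 0.1 for Iapp and p = 0.2 for Ins2, where 0.1 is the smallest value that 3 against 3 libraries allow. Over the 9 exact tests of levels, shares and ratios, the Benjamini-Hochberg adjusted values were 0.18 for Ins1 and Iapp and 0.225 for Ins2.

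**Figure D2:**
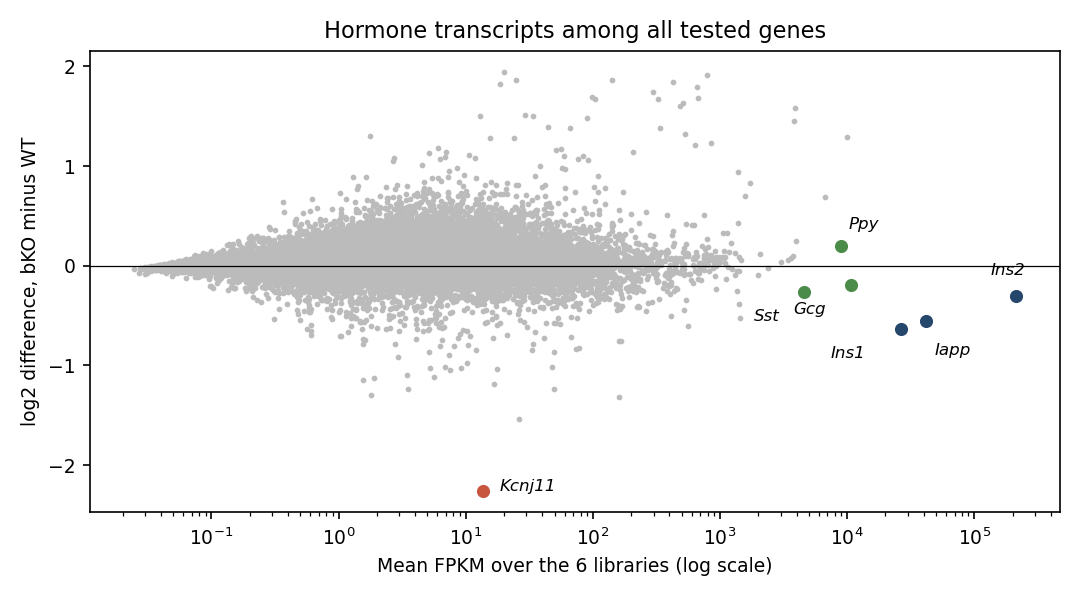
Each point is 1 of the 15962 tested genes, with the mean FPKM over the 6 libraries on a log axis and the log2 difference of bKO minus WT on log2(FPKM + 1). Ins1, Iapp and Ins2 are at the far right at -0.64, -0.56 and -0.30, Gcg, Sst and Ppy are the other islet hormones, and Kcnj11 is at -2.27.

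Counted as a share of each library's FPKM sum, which sets the total of every library to the same value, the hormone genes took up a large part of the islet transcriptome. Together they held 42.9%, 43.5% and 36.2% across the WT libraries against 31.6%, 38.9% and 30.7% across the bKO libraries. bKO replicate 2 thus lay above WT replicate 3. Ins1 alone held 5.01%, 4.05% and 3.59% for WT against 2.81%, 2.98% and 2.78% for bKO, again without overlap. Its mean share was 4.22 ± 0.72% for WT against 2.86 ± 0.11% for bKO (SD, n = 3 each; exact permutation test, two-sided, p = 0.1).

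Iapp held 6.87%, 6.17% and 6.33% of the FPKM sum across the WT libraries against 4.29%, 5.40% and 4.38% across the bKO libraries. The means were 6.46 ± 0.37% and 4.69 ± 0.62% (SD, n = 3 each; exact permutation test, two-sided, p = 0.1), and the groups were apart. Ins2 held 31.1%, 33.3% and 26.2% for WT against 24.5%, 30.5% and 23.6% for bKO, with bKO replicate 2 within the WT range. The means of the Ins2 share were 30.2 ± 3.62% and 26.2 ± 3.77% (SD, n = 3 each; exact permutation test, two-sided, p = 0.2). The difference of the Ins2 shares, -4.02 percentage points, was -2.47 without WT replicate 2 and -6.19 without bKO replicate 2. The Benjamini-Hochberg adjusted values were 0.18, 0.18 and 0.225 for Ins1, Iapp and Ins2.

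The lowest hormone shares went with the highest acinar content. Of the FPKM sum, the 14 acinar markers held 3.70%, 1.55% and 3.71% across the bKO libraries and 0.181%, 2.02% and 2.67% across the WT libraries. With these markers taken out of the sum, the mean share of Ins1 was 4.28 ± 0.68% for WT against 2.95 ± 0.07% for bKO, that of Iapp 6.56 ± 0.30% and 4.83 ± 0.57%, and that of Ins2 30.7 ± 3.54% and 26.9 ± 3.52% (SD, n = 3 each). The 14 markers hold too little of the sum for their removal to move a share much, and the part of acinar RNA in the hormone values was not tested.

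**Figure D3:**
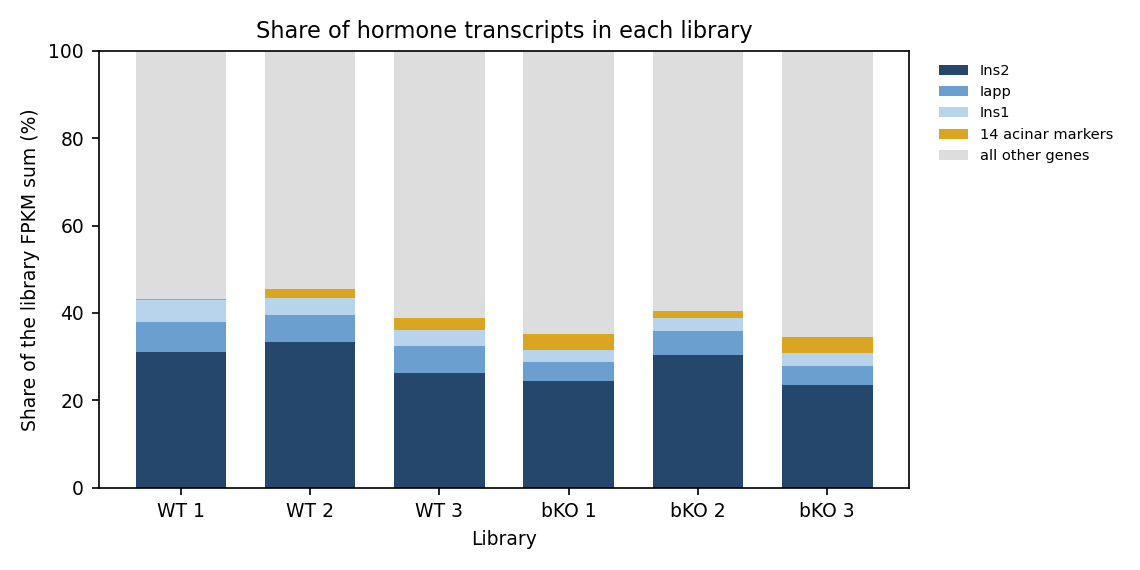
Bars give, for each library, the percent of the FPKM sum held by Ins2, Iapp, Ins1, the 14 acinar markers together and all other genes. The hormone genes hold 36.2% to 43.5% in WT and 30.7% to 38.9% in bKO, and the acinar band is thinnest in WT replicate 1, at 0.181%.

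Ratios between the members within a library do not depend on how the library is scaled. The balance of the insulin genes, Ins2 over Ins1, was 6.20, 8.22 and 7.30 across the WT libraries against 8.69, 10.2 and 8.46 across the bKO libraries, so that every bKO library lay above every WT library. The mean ratio was 7.24 ± 1.01 for WT against 9.13 ± 0.96 for bKO (SD, n = 3 each), and the difference of the log2 ratios was 0.34 (exact permutation test, two-sided, p = 0.1, adjusted 0.18). Put as a share of all insulin transcripts, Ins1 made up 13.9%, 10.8% and 12.0% for WT against 10.3%, 8.91% and 10.6% for bKO. The gap between the groups was narrow, between WT replicate 2 at 10.8% and bKO replicate 3 at 10.6%, and within each group replicate 2 had the lowest Ins1 share. The ratio rests on the authors' split of reads between these genes, whose coding sequences are 92.4% identical over the aligned bases.

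The balance of Iapp and Ins1 did not separate the groups. The ratio of Iapp to Ins1 was 1.37, 1.52 and 1.76 across the WT libraries against 1.53, 1.81 and 1.57 across the bKO libraries, with the groups overlapping over most of their range. Its log2 difference was 0.08 (exact permutation test, two-sided, p = 0.5, adjusted 0.5), and the sign turned without WT replicate 1, where the difference was -0.0042.

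Iapp to Ins2 was 0.221, 0.185 and 0.241 for WT against 0.176, 0.177 and 0.186 for bKO. Only WT replicate 2 lay within the bKO range. The mean ratio was 0.216 ± 0.028 for WT against 0.180 ± 0.0055 for bKO (SD, n = 3 each), with a log2 difference of -0.26 (exact permutation test, two-sided, p = 0.2, adjusted 0.225). Within the sum of the 3 hormone genes, Ins2 made up 73.8 ± 2.36% for WT against 77.5 ± 0.87% for bKO, Iapp 15.9 ± 1.68% and 13.9 ± 0.32%, and Ins1 10.3 ± 1.22% and 8.55 ± 0.76% (SD, n = 3 each).

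**Figure D4:**
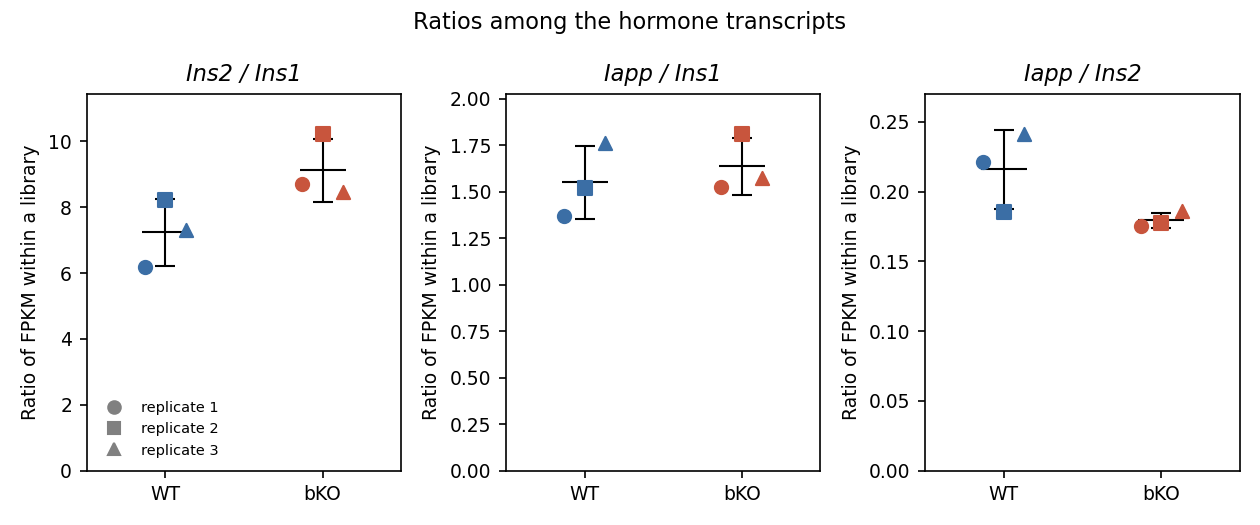
Ratios of FPKM within each library, for Ins2 over Ins1, Iapp over Ins1 and Iapp over Ins2, with bars at the mean and whiskers of SD over 3 libraries. The bKO libraries are above the WT libraries for Ins2 over Ins1, at 8.46 to 10.2 against 6.20 to 8.22, and the groups overlap in the other panels.

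The hormones of the other islet cells gave a further scale that leaves exocrine RNA out. Gcg of the alpha cells was at 11381 ± 807 FPKM for WT against 10184 ± 2890 for bKO, Sst of the delta cells at 4969 ± 466 and 4162 ± 746, and Ppy of the PP cells at 8365 ± 2376 and 9398 ± 933 (SD, n = 3 each). Their limma adjusted p was 0.794, 0.552 and 0.768. Ins1 over Sst was 8.0, 6.07 and 5.63 across the WT libraries against 5.44, 4.47 and 5.19 across the bKO libraries, and Iapp over Sst was 11.0, 9.23 and 9.93 for WT against 8.30, 8.10 and 8.16 for bKO. Neither ratio overlapped between the groups. Ins2 over Sst was 49.6, 49.8 and 41.1 for WT against 47.3, 45.7 and 43.9 for bKO, and there the bKO libraries lay inside the WT range.

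Against Gcg the picture was similar for Iapp, at 4.84, 4.42 and 3.90 for WT against 3.61, 3.01 and 3.61 for bKO. For Ins1 the groups overlapped, with 3.53, 2.90 and 2.21 for WT against 2.37, 1.66 and 2.29 for bKO, as they did for Ins2, with 21.9, 23.9 and 16.2 for WT against 20.6, 17.0 and 19.4 for bKO. Against Ppy, Ins1 was at 3.97 ± 0.53 for WT against 2.21 ± 0.07 for bKO and Iapp at 6.20 ± 1.42 and 3.61 ± 0.24, both without overlap, and Ins2 at 29.1 ± 7.64 and 20.1 ± 1.68 (SD, n = 3 each). These ratios to other hormones were not tested.

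Transcription factors that act on the insulin genes had differences on both sides of 0. Levels in this and the following gene lists are means ± SD with n = 3 libraries a group. Of 16 tested, 0 passed in limma, 9 had a positive and 7 a negative log2 difference, and the median was 0.04 against 0.05 over all tested genes. Tcf3, which encodes the E proteins that pair with Neurod1, was at 13.1 ± 0.71 FPKM for WT against 15.8 ± 0.99 for bKO (limma adjusted p = 0.188). Insm1, a zinc finger factor of endocrine cells, was at 74.7 ± 1.34 and 63.6 ± 11.1 (limma adjusted p = 0.370).

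Genes that process the prohormones or belong to their granules had mostly negative differences. Of 14 tested, 11 were negative and 0 passed in limma, with a median of -0.29. Pcsk1, a convertase that cuts proinsulin, was at 210 ± 16.2 FPKM for WT against 125 ± 27.0 for bKO (SD, n = 3 each; limma adjusted p = 0.111), or 0.60 times the WT mean. Pcsk2, the convertase that acts with it, was at 600.2 ± 49.1 and 444 ± 66.3 (limma adjusted p = 0.196). Scg3, a granin, was at 484 ± 31.0 and 341 ± 22.8 (limma adjusted p = 0.0770). These 3, named for the smallest p in their list, were among 6 of the 14 that were lower in bKO without overlap, against 6.48% of all tested genes.

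Folding of proinsulin in the endoplasmic reticulum is served by chaperones and disulfide isomerases, and 10 of the 11 tested had a negative log2 difference, with a median of -0.20 and 0 passing in limma. Pdia6, such an isomerase, was at 255 ± 30.5 FPKM for WT against 191 ± 5.60 for bKO and Pdia3, another isomerase, at 475 ± 10.3 and 399 ± 24.8, (limma adjusted p = 0.145 and 0.197). Dnajc3, a cochaperone, was at 91.4 ± 7.88 and 77.0 ± 5.65 (limma adjusted p = 0.265). Of the 11 genes, 7 were lower in bKO without overlap, against 6.48% of all tested genes, and 4 overlapped. Among the 7, the gap was very narrow for P4hb, with 574.1 FPKM in WT replicate 1 and 573.7 in bKO replicate 1. It was also narrow for Sdf2l1, with 63.2 FPKM in WT replicate 1 and 62.9 in bKO replicate 2. Ero1lb, also among the 7, is counted again in the list of other beta cell genes.

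Among the 13 other beta cell genes, 7 were negative and 6 positive, with a median of -0.08 and 0 passing in limma. Ucn3, a peptide of mature beta cells, was at 203 ± 50.8 FPKM for WT against 118 ± 15.6 for bKO, and the phosphatase gene G6pc2, which counters glucokinase in the beta cell, at 670.1 ± 65.4 and 441 ± 31.9 (limma adjusted p = 0.177 and 0.0812). Ero1lb, an oxidase that recharges disulfide isomerases, was at 143 ± 17.3 and 114 ± 13.8 (limma adjusted p = 0.273). Of these 13 genes, 1, Ucn3, had a log2 difference below that of Ins1.

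**Figure D5:**
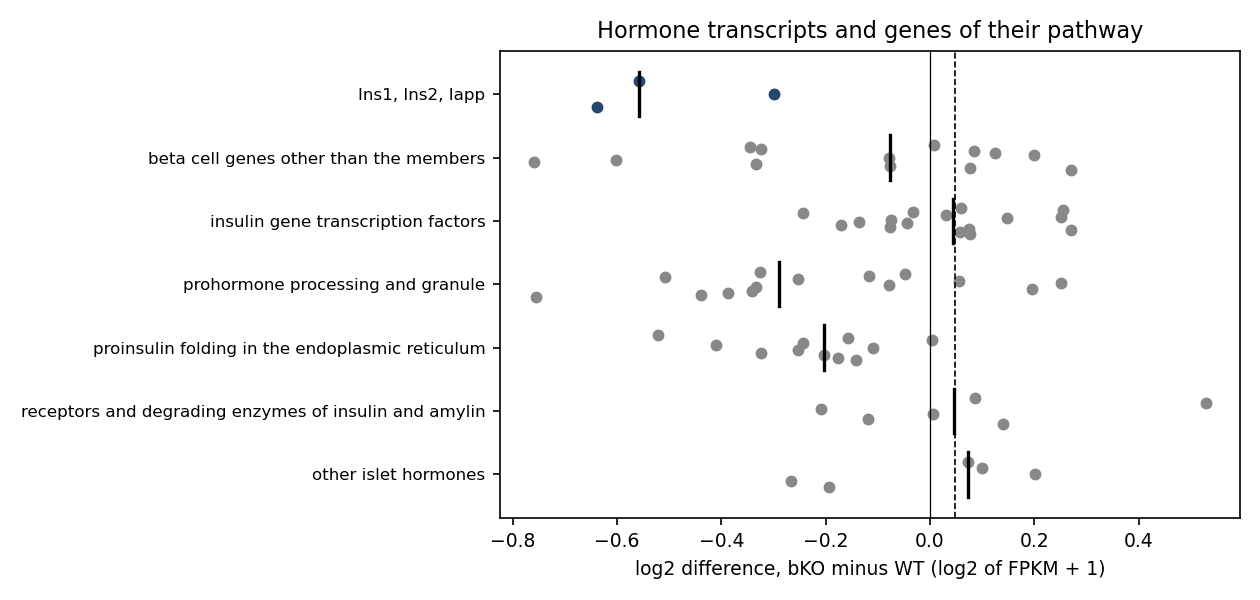
Points give the log2 difference, bKO minus WT, of Ins1, Ins2 and Iapp and of the tested genes of 6 lists, a vertical bar marks the median of each row, and the dashed line is the median of all tested genes, 0.05. The medians are -0.29 for processing and granule genes, -0.20 for folding genes and 0.04 for transcription factors of the insulin genes.

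Of 8 receptors and degrading enzymes of insulin and amylin, 6 were tested and 0 passed in limma, with 2 negative and 4 positive differences and a median of 0.05. Calcr, the gene of the calcitonin receptor, and Mme had no row under these symbols and were not analysed. Ramp3, which joins the calcitonin receptor to form an amylin receptor, was at 6.45 ± 0.86 FPKM for WT against 9.70 ± 0.025 for bKO, and its relative Ramp2 at 14.9 ± 1.38 and 12.7 ± 0.55 (SD, n = 3 each; limma adjusted p = 0.0949 and 0.284). Insr, the insulin receptor, was at 6.67 ± 0.26 and 7.45 ± 0.11 (limma adjusted p = 0.329). These 3, named for the smallest p in their list, did not overlap between the groups, while the other 3 of the 6 did. Over all tested genes, 15.3% were higher and 6.48% lower without overlap.

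Among markers of other cell types, the endothelial and Schwann cell sums were higher in bKO without overlap. The macrophage and leukocyte sum was lower in bKO without overlap. Of its 6 markers, 2 were lower without overlap, against 6.48% of all tested genes, and 4 overlapped. Of the 5 Schwann cell markers, 1 was higher without overlap, against 15.3% of all tested genes, and 4 overlapped. The acinar, stellate, duct, alpha cell, and delta and PP cell sums overlapped. All 7 endothelial markers were higher in bKO without overlap, as were 15.3% of all tested genes, and 1, Egfl7, passed, at 28.3 ± 1.06 FPKM in WT libraries and 42.0 ± 0.61 in bKO libraries (SD, n = 3 each; limma adjusted p = 0.0239). No gene passed in limma, Egfl7 included, with the replicate block (2588 at an unadjusted p under 0.05) or with bKO replicates 1 and 3 averaged (1310). The same held without WT replicate 2 (1590), WT replicate 3 (2906), bKO replicate 1 (1286) or bKO replicate 3 (1308). Without bKO replicate 2, 1 gene passed, lower in bKO, so Egfl7 lost its call there too. Pecam1 and Tek were at 20.8 ± 1.46 and 1.98 ± 0.22 in WT and 28.8 ± 2.02 and 3.03 ± 0.06 in bKO (limma adjusted p = 0.0816 and 0.0918). The endothelial sum was 136 to 160.3 FPKM in WT and 209 to 215 in bKO, and 0 of its markers were at 0 in any library. Of the 14 acinar markers 13 had positive differences and 0 passed, among them Pnlip and Ptf1a, with limma adjusted p of 0.447 and 0.475, and their sum was 1341 to 19978 FPKM in WT and 11665 to 26413 in bKO. Stellate markers (7 of 7 positive, 0 passing, with Pdgfra, Lum and Pdgfrb at limma adjusted p of 0.226, 0.248 and 0.315) summed to 139 to 348 FPKM in WT and 238 to 449 in bKO. Duct markers (6 of 7 positive, 0 passing, with Spp1 and Krt19 at 0.406 and 0.504) summed to 1353 to 1932 and 1899 to 2347.

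Macrophage and leukocyte markers were 6 of 6 negative, 0 passing, and a sum of 82.9 to 95 FPKM in WT and 68.6 to 69.1 in bKO, Cd68, Lyz2 and Cd74 having limma adjusted p of 0.137, 0.467 and 0.669. Alpha cell markers summed to 10650.0 to 12240 FPKM in WT and 8595 to 13659 in bKO, with 5 of 7 positive and 0 passing, and Irx2 and Gc at limma adjusted p of 0.332 and 0.612. Delta and PP cell markers summed to 11320 to 15746 and 12567 to 15587, with 2 of 5 positive and 0 passing, and Rbp4, Hhex and Sst at 0.300, 0.618 and 0.552. Schwann cell markers summed to 41.0 to 51.8 and 54.2 to 60.8, with 4 of 5 positive and 0 passing, and Cryab and Sox10 at 0.232 and 0.606. The part of these cell types in the hormone values was not tested.

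The genes whose pattern over the 6 libraries was most like that of each hormone differed between the 3. Likeness was the root mean square difference of log2 FPKM profiles, each centred on its own mean, over 6467 genes with a mean of at least 10 FPKM. For Ins1 the 5 nearest were Galnt14 (0.053), Cln6 (0.070), Ckb (0.075), Lrrc10b (0.076) and Cib2 (0.084). For Ins2 they were Tat (0.040), Papss2 (0.040), Ppp1r1a (0.043), Sytl4 (0.056) and Meg3 (0.056). Iapp was nearest to Ogdhl (0.042), Dos (0.063), Prkcb (0.068), Bex2 (0.071) and Pcsk2os1 (0.076), the last an RNA antisense to Pcsk2, whose reads cannot be told from those of Pcsk2 unless strand was used in counting, which is not stated.

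Between the hormone genes, the distance was 0.136 for Ins1 and Iapp, 0.173 for Iapp and Ins2 and 0.223 for Ins1 and Ins2. Iapp was 20th in nearness to Ins1 and 364th to Ins2, Ins1 was 70th to Iapp and 1385th to Ins2, and Ins2 was 168th to Iapp and 169th to Ins1. Galnt14, the nearest to Ins1, was at 21.2, 17.4 and 14.9 FPKM across the WT libraries against 11.2, 13.2 and 10.7 across the bKO libraries. Like Ins1, it was highest in WT replicate 1 and, among bKO libraries, in bKO replicate 2. Papss2, near Ins2, was at 91.6, 109 and 82.7 FPKM for WT against 70.4, 90.3 and 69.6 for bKO, with the highest value in WT replicate 2. Ogdhl, the nearest to Iapp, was at 63.8, 67.1 and 57.0 FPKM for WT against 39.5, 52.5 and 38.7 for bKO, without overlap. Galnt14, Papss2 and Ogdhl were picked for likeness over these same libraries, so a shared order or separation follows from that choice.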

How the data were processed

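RNA of isolated islets was sequenced in 3 WT and 3 bKO libraries, grouped and numbered by sample title. The authors deposited FPKM. Per the labels and design text, trimmed reads were mapped by a service provider and Cufflinks assembled transcripts under a fixed annotation, and mm9 is named in the submitters' processing notes. Neither aligner nor tool versions are stated there. Although the design text speaks of logarithms, quantile normalization and dropping genes at 0, the FPKM in the table are on a linear scale, differ in distribution between libraries and hold 585 genes at 0 in a library. A blank row and a row of medians name no gene and were left out.

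Differences of log2(FPKM + 1), without quantile normalization, were fitted in R 4.3.3 by limma 3.58.1 (eBayes with trend, two-sided, Benjamini-Hochberg over 15962 genes, threshold 0.05). A log2 difference on this scale understates the change of low genes. Quantile normalization gives the top ranks of each library the same values, so it was an alternative only. Shares, ratios and levels of the members were compared in 9 exact permutation tests, adjusted together. The smallest p is 0.1 for 3 against 3 and for 3 against 2 libraries and 0.25 for 3 pairs. On simulated data the limma code was tested for known changes.

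Depth was estimated from the spacing of low FPKM in genes with 1 transcript, of which 58.4% to 72.0% per library lay within 0.1 of a whole number of fragments. Cufflinks splits fragments between transcripts, so these depths are estimates and no count test was run. Named genes were the members, Kcnj11, the 10 rows of highest mean FPKM, Gcg, Sst and Ppy, up to 3 genes per list with the smallest p and a mean of at least 1 FPKM, and the 5 genes nearest to each member. Mafa and Slc2a2 were named outside this rule. Some genes that the rule takes are not reported here. The members and lists were chosen with earlier results of these data known. Sequences came from RefSeq (GRCm38.p6) and GENCODE M21. Scripts used scipy 1.17.1, numpy 2.4.6, pandas 2.3.3, Biopython 1.88 and matplotlib 3.10.9 under Python 3.11.15. Alternatives were other scalings, filters, pseudocount and variance model, a block for replicate number, omission of each library, and bKO replicates 1 and 3 averaged.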

Additional observations from a re-analysis of the deposited data

How the results depend on the processing

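The log2 differences of Ins1, Ins2 and Iapp were negative in 14 of 15 alternatives and passed in 0 of them. In the other, quantile normalization, each was 0 by construction. Leaving out each library gave -0.77 to -0.53 for Ins1, -0.44 to -0.18 for Ins2 and -0.69 to -0.49 for Iapp. The FPKM, shares and Ins2 to Ins1 and Iapp to Ins2 ratios kept their sign in all alternatives, and the Iapp to Ins1 log2 ratio ran from -0.0042, without WT replicate 1, to 0.18.

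Kcnj11 lost its call with the replicate block (-2.27, limma adjusted p = 0.116) and with bKO replicates 1 and 3 averaged (-2.18, 0.188), and ran from -2.43 to -2.18 with a library left out. The labels do not say whether replicate numbers pair the samples. Deviations of same-numbered libraries had correlations of -0.18, 0.08 and 0.29. Those of differently numbered libraries ran from -0.36 to 0.29, so these values do not decide it. The block moved no member past the threshold.

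limma called 39 genes (20 lower), 31 with quantile normalization (21 lower), 6 on the FPKM sum without the 3 members (5 lower), 34 with median of ratios scaling (21 lower), 22 with no filter (9 lower), 36 with a mean of at least 1 FPKM (15 lower), and 0 with the replicate block (2588 at an unadjusted p under 0.05) or the averaged pair (1310). With a library left out the count ran from 0 to 82. It was 82 without WT replicate 1, 1 without bKO replicate 2, and 0 without WT replicate 2 (1590 at an unadjusted p under 0.05), WT replicate 3 (2906), bKO replicate 1 (1286) or bKO replicate 3 (1308). The cause of these changes was not tested.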

Other observations

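Genes outside the hormone group made up 422652, 464835 and 477147 FPKM across the WT libraries against 488733, 459886 and 486794 across the bKO libraries, in replicate order. On deposited FPKM, 15.3% of tested genes were higher in bKO without overlap between the groups and 6.48% were lower. Scaling each library to its FPKM sum without Ins1, Ins2 and Iapp moved the median log2 difference of all tested genes from 0.05 to -0.0045. On that scale the differences of the hormone genes were -0.71 for Ins1 (limma adjusted p = 0.595), -0.63 for Iapp (0.698) and -0.37 for Ins2 (0.943).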
